A study of Mus musculus with 7 samples.

Results

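Sox1, Sox2, Sox3 and Sox21 are the 4 SoxB genes examined here, taken by symbol from the 32285 genes listed in the deposited single-cell tables. Sox1, Sox2 and Sox3 form the SoxB1 group, transcription factors with an HMG box that bind DNA and keep cells of the neural tube in a progenitor state. Sox21 belongs to the SoxB2 group, which represses targets and favours exit from that state. In the neural crest, the migratory population that leaves the dorsal neural tube, the SoxE gene Sox10 marks early migratory, glial and autonomic cells, and Sox2 is also known from crest-derived glial progenitors. SoxB genes can therefore mark both neural tube cells that come through a sort for neural crest lineage and crest cells that stay on a glial or neuronal path.

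The data were droplet single-cell RNA-seq libraries of EGFP+ cells sorted from mouse embryos on a Swiss-Webster mixed background, with 7 libraries in all. All embryos carried Wnt1-Cre, which recombines in the dorsal neural tube and its crest derivatives, and the ROSA-EGFPf reporter allele. Control embryos (Wnt1-Cre/+;ROSA-EGFPf/+) gave 1 library at E8.5, 1 at E9.5 and 2 at E10.5. Libraries titled Tbx1 null gave 1 at E9.5 and 2 at E10.5, and while their genotype label lists Tbx1+/- with the same 2 alleles, the sample list of the study gives Tbx1-/-, as their titles do. Each library was a pool of embryos of 1 genotype. The E8.5 tissue was the front portion of the embryo, including the head, while the head was removed at E9.5 and E10.5 and the first pharyngeal arch was also removed at E10.5. Stage and dissected tissue therefore cannot be told apart. The 2 E10.5 groups were dissected alike, but the kit differed for Tbx1 null replicate 1, and the E8.5 library used an older kit. In the sample list of the study, the embryos of Tbx1 null E10.5 replicate 1 also had fewer somites than those of the other E10.5 libraries.

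After filtering, 53538 cells remained, between 5587 and 9557 per library, with a median of 14857 to 22882 UMIs (unique molecular identifiers, each standing for 1 counted transcript) per cell. Cell classes were set by UMI gates that used no SoxB gene. Neuronal cells held at least 3 UMIs of Tubb3 plus Stmn2 (15526 cells). Sox10 cells held at least 2 Sox10 UMIs (4389 cells). Neural cells held at least 3 UMIs of 8 neural tube genes such as Hes5, Pax6 and Zic1 (9630 cells), mesenchymal cells at least 3 UMIs of Twist1, Prrx1 and Prrx2 (21914 cells), and 2079 cells passed no gate. CPM stands for UMIs per 1000000 UMIs summed over a class. Neural gate genes summed to 448 to 1515 CPM in neural cells and 8.60 to 56.8 in mesenchymal cells. The gates themselves set this difference, so it is no check of the classes. The neuronal gate was wide, since 10627 of its 15526 cells also passed the neural gate and only 6646 had 10 or more Tubb3 plus Stmn2 UMIs. In Tbx1 null E10.5 replicate 2 this gate took 79.7% of the cells, and its mesenchymal cells held 58.9 CPM of Tubb3 plus Stmn2 against 3.72 to 23.0 in the other libraries. The main results on neuronal cells are therefore also given at a gate of 10 UMIs. Any 2 libraries shared between 0 and 27 cell barcodes, at most 0.342% of the smaller library.

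The 4 genes are single-exon genes whose coding sequences are nearly alike where they encode the HMG box. Sox1 lies on chromosome 8 at 12395295 to 12400126, Sox2 on chromosome 3 at 34650405 to 34652461, Sox3 on chromosome X at 60891366 to 60893430 on the minus strand, and Sox21 on chromosome 14 at 118233232 to 118237030 on the minus strand (mm10, GENCODE vM21). The 120 coding bases below were the stretch with the highest summed identity to Sox2. They are shown 5′ to 3′ on the coding strand to show how alike the genes are there, and capitals mark bases that differ from Sox2. The libraries were made with kits that read the 3′ ends of transcripts, and how reads fell on these stretches was not examined.
Sox2: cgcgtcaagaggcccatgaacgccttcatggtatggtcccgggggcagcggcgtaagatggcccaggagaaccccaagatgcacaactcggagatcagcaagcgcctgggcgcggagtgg
Sox1: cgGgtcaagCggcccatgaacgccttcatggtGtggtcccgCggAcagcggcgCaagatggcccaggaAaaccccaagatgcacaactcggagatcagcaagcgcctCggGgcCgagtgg
Sox3: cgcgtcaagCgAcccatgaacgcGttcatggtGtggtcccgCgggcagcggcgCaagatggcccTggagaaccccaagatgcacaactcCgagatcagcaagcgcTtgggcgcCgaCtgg
Sox21: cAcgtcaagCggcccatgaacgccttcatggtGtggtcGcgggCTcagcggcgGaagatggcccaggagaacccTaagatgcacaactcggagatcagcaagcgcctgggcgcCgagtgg

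In this stretch Sox1 differed from Sox2 at 10 bases, Sox3 at 11 and Sox21 at 9, of which 9, 8 and 6 were at the third base of a codon. The stretches lie at chromosome 3, 34650539 to 34650658 (Sox2), chromosome 8, 12396508 to 12396627 (Sox1), chromosome X, 60892885 to 60893004 (Sox3) and chromosome 14, 118235498 to 118235617 (Sox21). Across whole transcripts, the longest run of bases identical between any pair was 45, between Sox1 and Sox3, and the shortest of the pairwise maxima was 28. Sox1 and Sox2 each lie within a longer non-coding gene on the same strand, Sox1ot and Sox2ot, but no exon of either overlaps an exon of the SoxB gene in this annotation.

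To compare shares of cells at equal depth, each cell was thinned to 5000 UMIs. Each of the 4 genes was then detected in a larger share of neural cells than of neuronal, Sox10 or mesenchymal cells in 7 of 7 libraries, also with the neuronal gate at 10 UMIs, and Sox2 was detected most often. Without thinning, neural cells held 13.5% to 67.3% and neuronal cells 18.1% to 84.8% of a library's Sox2 UMIs, with the lowest neural and highest neuronal share in Tbx1 null E10.5 replicate 2, and the neuronal share was the larger in 3 of 7 libraries. The share of neural cells with a Sox2 UMI ran from 45.1% at E8.5 through 66.6% and 67.3% at E9.5 (control, Tbx1 null) to 76.0% and 69.3% in the control and 76.4% and 81.3% in the Tbx1 null E10.5 libraries. Without thinning the median share was 92.7%. Sox1 was found in 7.91% to 27.1% of neural cells (median 17.9%), Sox3 in 10.0% to 18.4% (median 11.4%) and Sox21 in 2.44% to 24.4% (median 5.17%). At least 1 SoxB1 gene was detected in 56.4% to 85.2% of neural cells. The highest Sox21 share was that of the E8.5 library, and the other 6 libraries lay between 2.44% and 8.11%.

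**Figure D1:**
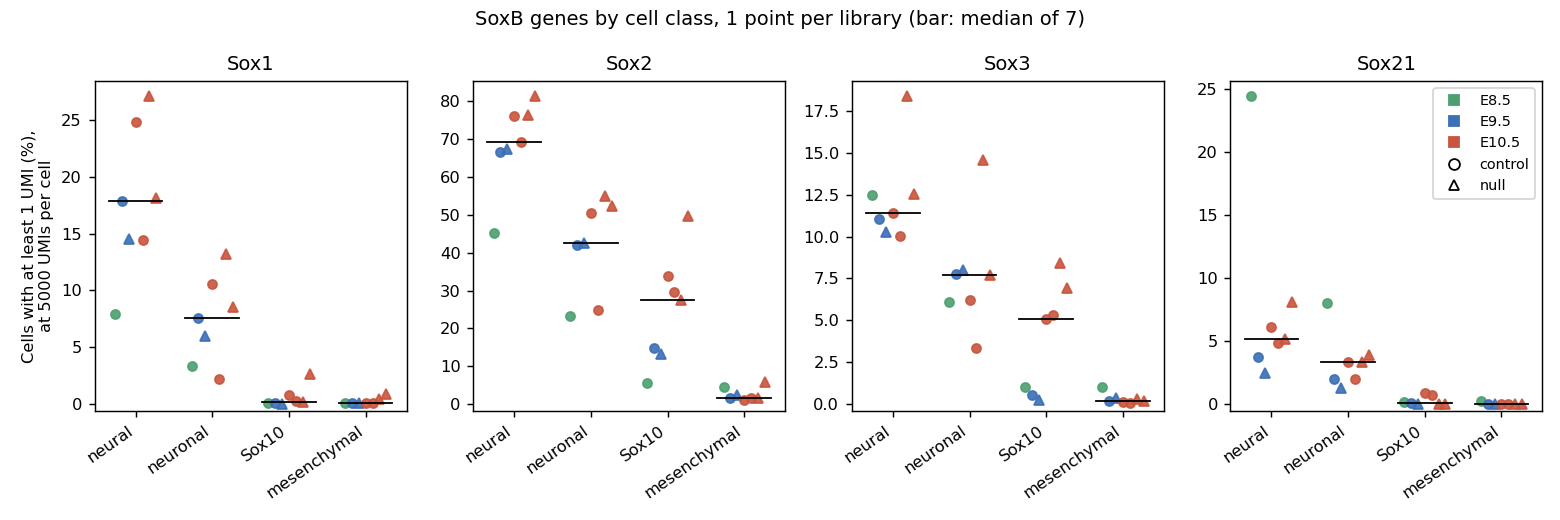
Share of cells with at least 1 UMI of each SoxB gene (y axis, percent, cells thinned to 5000 UMIs) in 4 cell classes (x axis), 1 point per library, coloured by stage and shaped by genotype, with the median of 7 libraries as a bar. Sox2 reaches 49.6% of Sox10 cells in 1 library while Sox1 and Sox21 stay under 2.62% in that class.

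Against mesenchymal cells, all 4 genes rose in neural cells in 7 of 7 libraries. In counts summed per library and class, Sox2 reached 294 ± 93.6 CPM in neural cells (SD, n = 7 libraries) and 5.15 ± 3.48 in mesenchymal cells, a log2 fold change of 5.92 ± 0.45 (SE, edgeR adjusted p = 1.43e-05). Sox1 was at 43.0 ± 18.3 against 0.436 ± 0.517, a log2 fold change of 7.18 ± 0.45 (edgeR adjusted p = 4.71e-06). Sox3 was at 27.1 ± 7.34 against 0.700 ± 0.432, a log2 fold change of 5.38 ± 0.26 (edgeR adjusted p = 1.20e-06). Sox21 was at 17.2 ± 16.9 against 0.218 ± 0.371, a log2 fold change of 6.85 ± 0.32 (edgeR adjusted p = 9.63e-07). Of all 13523 genes tested, 52.9% were called and 24% were called higher in neural cells. The mesenchymal level, in a class that should lack these genes, was 0.704% to 6.76% of the neural level for Sox2 and 0.153% to 3.43% for Sox1. The same ratio was 0.169% to 2.13% for Hes5, which the gates keep low in mesenchymal cells, and 0.459% to 145% for Fabp7, a progenitor gene outside the gates. Free RNA and low expression in mesenchymal cells were not told apart.

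Other neural progenitor genes rose in this contrast as well. Of 16 progenitor and Notch genes outside the gate, 15 rose, among them Rfx4 (log2 fold change 7.18), Pax7 (6.29), the dorsal neural tube gene Pax3 (5.55) and the Notch ligand Dll1 (5.41), and Hes1 was at -0.09. Both non-coding transcripts at the loci rose, Sox2ot by 6.02 and Sox1ot by 7.92. Of 16 other Sox genes 9 were tested, of which 7 fell, including Sox5 (-2.43) and the SoxE gene Sox9 (-1.40), and Sox13 rose (0.90), where 29% of all genes were called lower. Sox10 (-1.70) was among those that fell, and the gates hold it to at most 1 UMI per cell in both classes. The medians were 1.84 for the progenitor list, -1.09 for the other Sox genes and -0.05 over all genes tested.

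Over the 28 sums of 7 libraries and 4 classes, the profile most like that of Sox1 was Wnt3a (Pearson r of log2 values = 0.985), followed by Zic5, Rfx4, Wnt3 and Adgrv1. For Sox2 it was Wscd1 (0.970), then Tdrkh, Sox3, Nrarp and Pax3. For Sox3 it was Sox2 itself (0.955), then Gldc, Wscd1, Tdrkh and Atp6v0e2. For Sox21 it was Hes3 (0.963), then Nuak2, Cntnap2, Lfng and Tmem47. These values describe class sums that share libraries and depth, among 7929 genes compared.

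Within neural cells the 4 genes were not spread evenly over dorsal territories. Roof plate cells, the dorsal midline, were taken as neural cells with at least 2 UMIs of Lmx1a plus Gdf7, and 6 libraries held 64 to 314 of them, while the E8.5 library held 19 and was left out. There, 3.82% or fewer of the E10.5 cells had a Sox1 UMI against 17.2% to 31.6% of the other neural cells, and at E9.5 the shares were 4.69% and 4.67% against 18.4% and 15.1%. At 5000 UMIs per cell, Sox21 was found in 0 of 785 roof plate cells, which allows a share of up to 0.382% of cells with a UMI at that depth, against 2.59% to 9.26% of the other neural cells. Sox2 was kept in 35.9% to 61.4% of roof plate cells against 67.8% to 84.1%, and Sox3 in 1.43% to 7.81% against 10.6% to 20.5%. For each of the 4 genes the roof plate share was the lower one in 6 of 6 libraries.

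In summed counts all 4 genes fell in roof plate cells, where 46.2% of 11777 genes were called, 22.6% higher and 23.6% lower. The log2 fold change was -1.03 ± 0.07 (SE) for Sox2, -1.63 ± 0.14 for Sox3 and -2.95 ± 0.26 for Sox1, with edgeR adjusted p between 1.98e-07 and 1.87e-06. For Sox21 it was -5.42 ± 0.38 (edgeR adjusted p = 3.66e-07), resting on 5 UMIs in roof plate cells without thinning. Each of these calls held in every alternative fit run on this subset (test, scaling and low-count filter) and without any 1 library.

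Rhombic lip cells, the dorsal progenitors that express the proneural gene Atoh1, differed in another way. With at least 2 Atoh1 UMIs, 6 libraries held 61 to 275 of them. Sox2 was found in 68.4% and 77.8% of these cells at E9.5 (control, Tbx1 null) and in 83.6% to 90.9% at E10.5, against 65.6% to 80.0% of the other neural cells, and was the higher share in 6 of 6 libraries. Sox2 rose by 0.51 ± 0.05 on the log2 scale (430 ± 98.2 against 308 ± 65.2 CPM, n = 6, edgeR adjusted p = 5.87e-06). Sox1 fell by 0.92 (edgeR adjusted p = 2.45e-06) and Sox21 fell by 3.18 (edgeR adjusted p = 1.99e-07, from 12.4 ± 5.83 to 1.23 ± 1.11 CPM). The Sox21 value rests on 20 UMIs in rhombic lip cells without thinning. For Sox3 the log2 fold change was -0.27 ± 0.12 and did not pass (edgeR adjusted p = 0.176). Among the 11356 genes tested, 6.19% were called higher and 4.84% lower, and the 4 SoxB genes gave 1 higher and 2 lower.

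**Figure D2:**
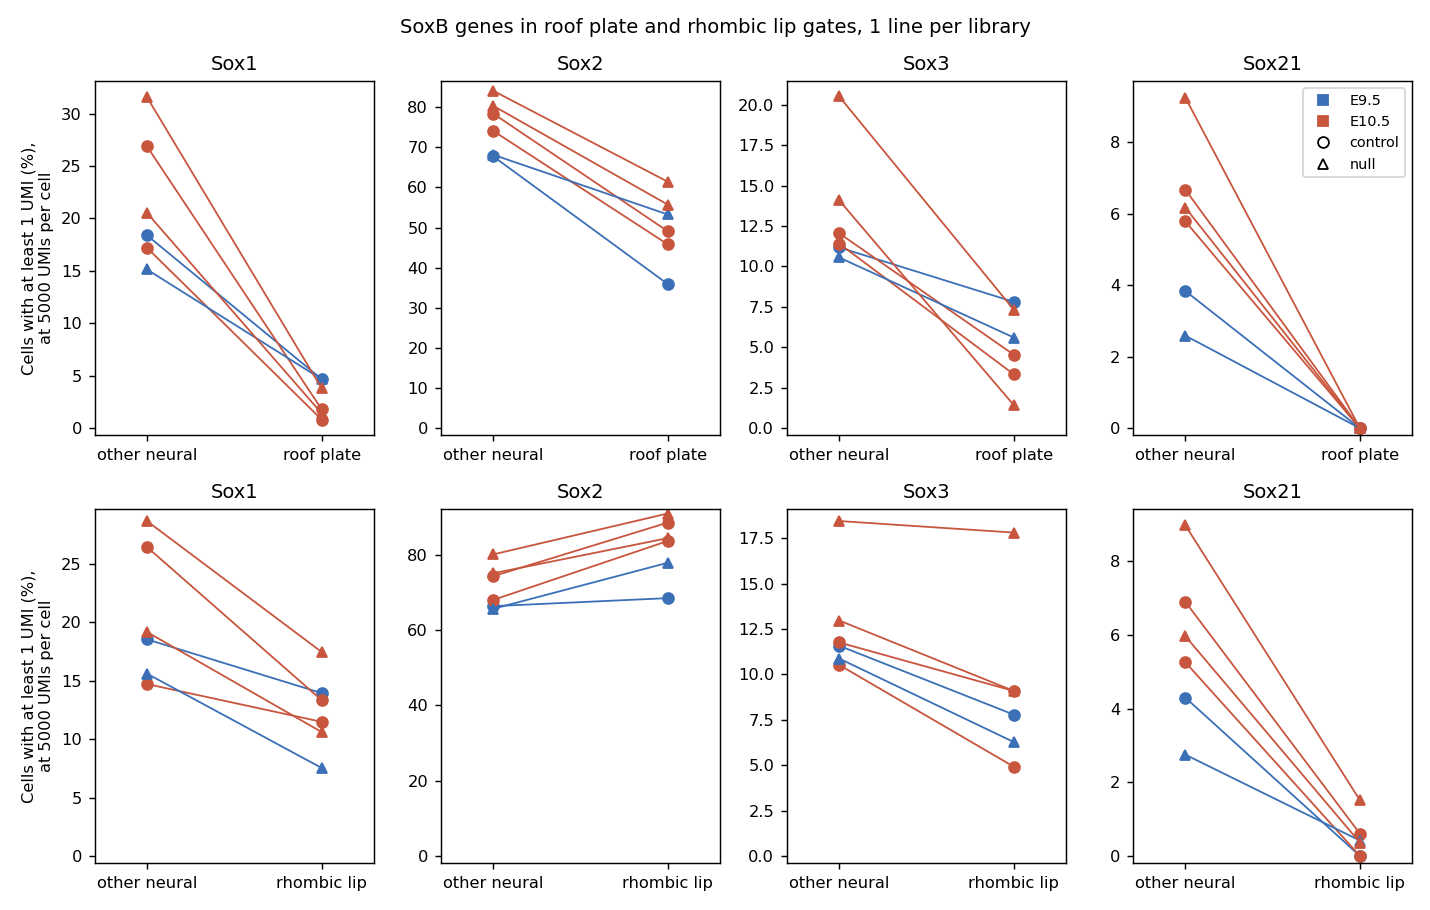
Share of neural cells with at least 1 UMI of each SoxB gene (y axis, percent, cells thinned to 5000 UMIs) inside and outside the roof plate gate (top) and the rhombic lip gate (bottom), with 1 line for each of the 6 libraries of E9.5 and E10.5. All lines fall except those of Sox2 in the rhombic lip, which rise.

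Neural cells with at least 2 UMIs of the hindbrain Hox genes (Hoxa2, Hoxb2, Hoxb3) had more Sox1 (log2 fold change 0.42 ± 0.11, edgeR adjusted p = 0.0444), where 6.78% of 11600 genes were called, 3.04% higher and 3.74% lower. That call was lost when any of 5 libraries was left out, namely control E9.5 or any E10.5 library. For Sox2 the value was 0.31 ± 0.12 (edgeR adjusted p = 0.143), and 0.44 with a call when the E8.5 library was left out. Sox3 (-0.19 ± 0.20) and Sox21 (-0.64 ± 0.37) did not pass (edgeR adjusted p = 0.634 and 0.341).

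Cells with at least 2 UMIs of Otx2, a forebrain and midbrain gene that is also in the neural gate, separated the E8.5 library from the others. At E8.5, when the head was included, Sox21 was found in 28.8% of 788 Otx2 cells and 16.8% of the other 463 neural cells, and Sox2 in 48.2% and 39.7%. In the 6 later libraries Sox21 was found in none of 22 to 204 Otx2 cells, and Sox2 in 27.3% to 48.0% of them against 67.1% to 86.2% of other neural cells. Over all 7 libraries the log2 fold change was -1.41 ± 0.26 for Sox2 and -3.12 ± 0.53 for Sox1 (edgeR adjusted p = 0.00414 and 0.00320, 16.1% of 11612 genes lower). Sox3 fell by 1.52 ± 0.34 (edgeR adjusted p = 0.00938), though its CPM was higher in Otx2 cells in 1 of 7 libraries. For Sox21 it was -2.47 ± 0.79 (edgeR adjusted p = 0.0368), a call lost when any 1 of the 6 later libraries was left out. Without the E8.5 library it was -6.21, a value resting on very few Sox21 UMIs in the Otx2 cells of the later libraries. At E8.5 Sox21 was also detected in 29.8% of neural cells with at least 2 UMIs of the midbrain genes Pax2, En1 and En2 against 17.1% of the others. Among only 84 neural cells with hindbrain Hox genes in that library Sox21 was detected in 1.19%, against 26.0% of the others. In control E9.5 it was detected in 7.69% of 52 such midbrain cells and 3.58% of the others.

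Co-detection of 2 SoxB genes in the same neural cell was compared with the product of their single shares in that library. For Sox3 and Sox21 the observed count was above the product in 7 of 7 libraries, with a median ratio of 2.35 (range 1.13 to 2.64). In control E10.5 replicate 1, for instance, 22 cells held both where 9.38 corresponded to the product. The ratio for Sox1 and Sox21 was 1.55 (1.12 to 2.24), also above 1 in 7 of 7 libraries, and for Sox1 and Sox2 it was 1.10 (1.01 to 1.26). Sox1 and Sox3 gave 1.21 with 5 of 7 libraries above 1, Sox2 and Sox21 gave 1.06 (1.02 to 1.19) with 7 of 7, and Sox2 and Sox3 gave 1.07 (0.924 to 1.18) with 6 of 7. A median of 51.9% of neural cells showed 1 of the 4 genes, 19.0% showed 2 and 0.259% showed all 4. These are descriptions at 5000 UMIs per cell, and cells of a library are not replicates.

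Along the order of neuronal genes, all 4 SoxB genes were detected least in the last bin on average. Neural and neuronal cells that passed neither the Sox10 nor the mesenchymal gate were ordered by their Tubb3 plus Stmn2 UMIs in bins of 0, 1 to 2, 3 to 9 and 10 or more. Cells in the bins of 0 and 1 to 2 entered only with at least 3 neural gate UMIs. Cells with 3 or more Tubb3 plus Stmn2 UMIs entered with or without them, so the bins were not selected alike. The mean Sox2 share over 7 libraries was 65.8%, 71.5%, 69.1% and 40.8% in these bins. Over the first 3 bins the mean share went from 16.4% to 15.9% for Sox1, from 11.1% to 14.2% for Sox3 and from 8.95% to 6.65% for Sox21. Between 0 and 10 or more, Sox2 fell from 65.8 ± 10.5% to 40.8 ± 10.6% (SD, n = 7), Sox1 from 16.4 ± 6.51% to 3.85 ± 2.78%, Sox3 from 11.1 ± 2.04% to 6.25 ± 2.88% and Sox21 from 8.95 ± 9.13% to 3.38 ± 3.05%. Each gene was lower in 7 of 7 libraries (2-sided exact permutation test by sign flips within libraries, p = 0.0156, the smallest this design allows, and 0.0156 adjusted over the 4 genes). From the bin of 3 to 9 to that of 10 or more all 4 genes were lower in 7 of 7 libraries, whereas from 0 to 1 or 2 UMIs Sox1, Sox2 and Sox3 were each lower in 1 of 7. Sox1 was also lower in 7 of 7 from 1 or 2 to 3 to 9 UMIs, with a mean change of -2.79 percentage points. Sox2 was detected in 20.1% to 49.8% of cells with 10 or more neuronal UMIs, while Sox1 lay between 0% and 7.44%. The median of neural gate UMIs was also lower in the last bin than in the first in 6 of 7 libraries, for instance 8 against 20 in control E10.5 replicate 1. The part of this, and of the uneven entry into the bins, in the drop was not tested.

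**Figure D3:**
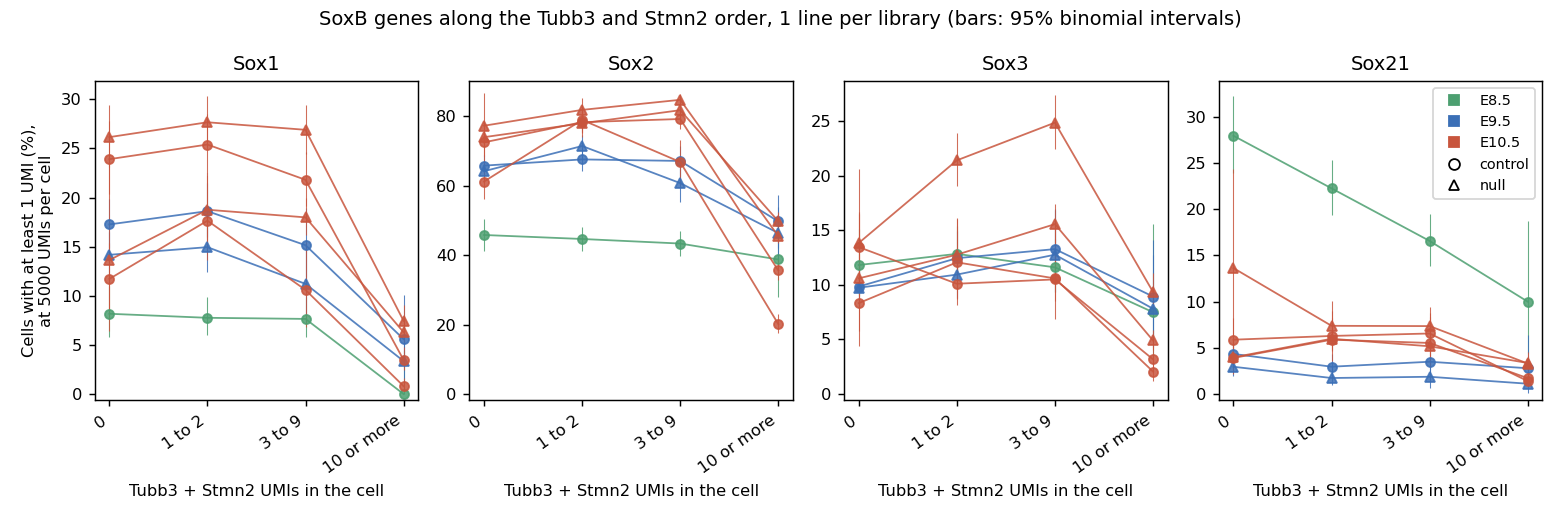
Share of cells with at least 1 UMI of each SoxB gene (y axis, percent, cells thinned to 5000 UMIs) in 4 bins of Tubb3 plus Stmn2 UMIs per cell (x axis), 1 line per library with 95% binomial intervals that cover counting error only. All 7 lines of each gene lie lower at 10 or more UMIs than at 3 to 9, and the E8.5 line of Sox21 declines throughout, from 28% to 10%.

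The same direction was seen in summed counts of neuronal against neural cells, a comparison that includes the cells of the bins above. There 42.7% of 13746 genes were called, 20.8% lower and 21.9% higher. Neural cells had to hold at least 3 neural gate UMIs and neuronal cells did not. The part of this difference in selection in the SoxB values was not tested. Log2 fold changes were -1.46 ± 0.17 for Sox1, -1.13 ± 0.12 for Sox21, -0.90 ± 0.12 for Sox2 and -0.82 ± 0.12 for Sox3, lower in 7 of 7 libraries each (edgeR adjusted p from 0.000267 to 0.00104). With the neuronal gate at 10 UMIs they were -2.51, -1.64, -1.21 and -1.37. Of the progenitor list 10 genes fell, such as Rfx4 (-1.30), Fabp7 (-1.06) and Hes1 (-0.85), and 3 rose, namely Pou3f1 (2.88), Lhx2 (2.86) and Dll1 (0.80). Sox1ot (-1.42) and Sox2ot (-0.68) fell with their neighbours. Sox4 (1.44) and Sox11 (0.75), the SoxC genes known from differentiating neurons, rose, as did all 14 proneural and neuronal genes. Of the neuronal cells, 2673 also passed the Sox10 gate, which neural cells by definition do not, so nothing is read from glial crest genes here. Of the neuronal cells 1927 also passed the mesenchymal gate, and mesenchymal gate genes summed to 78.8 to 287 CPM in neuronal and 21.4 to 71.0 in neural cells. The part of these cells in the SoxB values was not tested.

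In Sox10 cells Sox2 was the SoxB gene detected most often, and its level differed by stage. It was at 11.1 CPM at E8.5, 30.6 (control) and 28 (Tbx1 null) at E9.5, 92.6 and 77.8 in the control and 78.6 and 125 in the Tbx1 null libraries at E10.5. The stages did not overlap. The share of Sox10 cells with a Sox2 UMI was 5.49%, then 14.9% and 13.2%, then 33.9%, 29.6%, 27.4% and 49.6% in the same order, against 1.18% to 5.87% in mesenchymal cells. At E8.5 the mesenchymal share of the same library was 4.62%, and free RNA and low expression were not told apart. Sox3 was at 2.06 CPM at E8.5, 1.32 and 1.20 at E9.5, whereas the E10.5 libraries held 9.12, 12.2, 17.0 and 12.6, in the same order. Its share was 1.05% at E8.5 and 0.521% and 0.221% at E9.5, close to the 1.01%, 0.199% and 0.379% of mesenchymal cells in the same libraries, and 5.08% to 8.43% at E10.5.

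**Figure D4:**
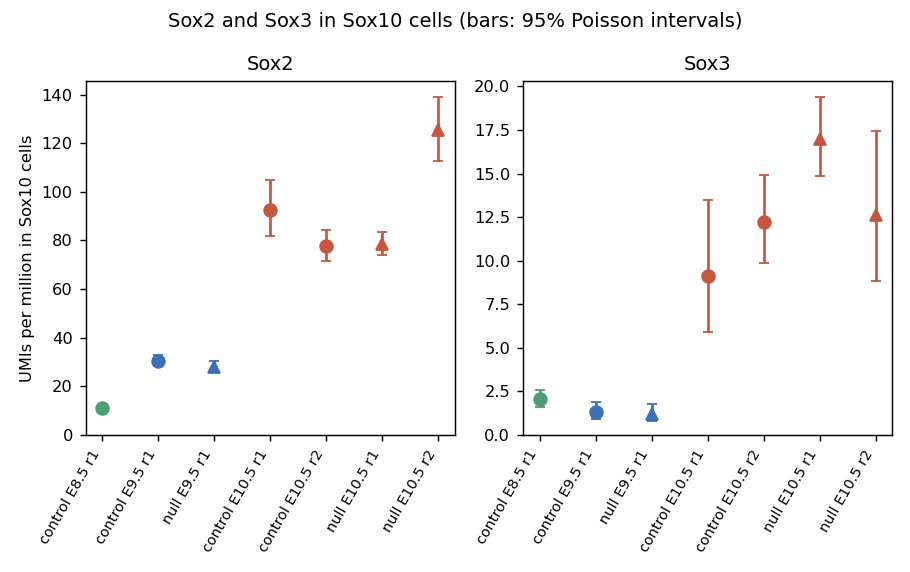
CPM of Sox2 and Sox3 summed over Sox10 cells (y axis) in each of the 7 libraries (x axis), with 95% Poisson intervals that cover counting error only. The 4 libraries of E10.5 lie above both E9.5 libraries for both genes.

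From E9.5 to E10.5, with genotype as a term, Sox2 rose by 1.28 ± 0.23 on the log2 scale (29.3 ± 1.81, n = 2, to 93.6 ± 22.3, n = 4, edgeR adjusted p = 0.000779) and Sox3 by 2.97 ± 0.31 (1.26 ± 0.0893 to 12.7 ± 3.24, edgeR adjusted p = 7.95e-06), in a comparison where 26.1% of 12482 genes were called and 13.4% were called higher. Both calls held under every alternative tried, at adjusted p of at most 0.0343 for Sox2 and 0.00533 for Sox3. Sox2ot rose by 2.98. Of 6 glial crest genes 3 rose, such as Cdh19 (1.44), and of 15 progenitor and Notch genes tested 6 rose, such as the Notch receptor Notch1 (2.29) and the glial progenitor gene Fabp7 (2.08), and none fell, where 12.7% of all genes were called lower. Sox8, the SoxE gene expressed with Sox10 in glial cells, rose by 1.97. Of 14 proneural and neuronal genes 10 rose, among them Isl1 (3.77) and Elavl3 (3.29).

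The Sox10 class itself differed between stages. Cells passing both the Sox10 and the neuronal gate were classed as neuronal. At E9.5 these were 332 and 174 cells (control, Tbx1 null), beside 961 and 914 Sox10 cells. At E10.5 they were 78 and 112 in the control libraries (126 and 414 Sox10 cells) and 693 and 605 in the Tbx1 null libraries (527 and 117). The Sox2 share of 49.6% in Tbx1 null replicate 2 rests on 115 cells, and was 43.2% of 537 with the neuronal gate at 10 UMIs. Mesenchymal gate genes were at 447 and 483 CPM in E9.5 Sox10 cells and at 12.8 to 68.7 CPM at E10.5. Neural gate genes were at 18.3 and 20.2 CPM, then at 70.03 to 105 CPM, and Sox10 at 144 and 145 CPM, then at 269 to 389 CPM. The part of these differences in the SoxB change was not tested. The following splits, set on all UMIs of a cell with SoxB detection at 5000 UMIs, only describe shares within ranges of these markers. At 2 to 4 Sox10 UMIs, Sox2 was found in 12.4% and 13.0% of cells at E9.5 and in 25.3% to 37.5% at E10.5, and at 5 or more in 21.5% and 13.8% and in 28.2% to 52.7%, so the stages did not overlap in either range of Sox10 UMIs. In Sox10 cells with 3 or more neural marker UMIs, 20 to 108 per library, the stages overlapped, with Sox2 in 12.1% and 21.6% of cells at E9.5 and in 13.9% to 53.6% at E10.5. In those with 2 or fewer mesenchymal UMIs they did not, with Sox2 in 20.5% and 16.0% of cells of the earlier stage and in 27.5% to 52.4% of the later. In those without any neural marker UMI, Sox2 was found in 15.4% and 13.5% of the earlier cells and in 31.1% to 37.0% of the later. Sox3 was found there in at most 0.733% of the earlier and in 4.20% to 8.68% of the later. With 3 or more mesenchymal UMIs, 1 to 35 cells per library at E10.5, the stages overlapped for Sox2 (10.3% and 10.7% against 0% to 25.7%). They also overlapped there for Sox3 (0.571% and 0.418% against 0% to 2.86%). With 3 or more neural marker UMIs Sox3 overlapped too (0% and 2.70% against 0% to 11.1%). In the remaining splits the stages did not overlap for Sox3. The otic genes Oc90 and Pax8 summed to at most 1.05 CPM in E10.5 Sox10 cells.

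Over all stages, Sox2 rose in Sox10 against mesenchymal cells by 3.53 ± 0.61 on the log2 scale (63.4 ± 41.2 against 5.15 ± 3.48 CPM, 7 of 7 libraries, edgeR adjusted p = 0.00512) and Sox3 by 3.04 ± 0.71 (edgeR adjusted p = 0.0148), where 13.4% of 12801 genes were called higher. Sox1 and Sox21 had too few counts to be tested there, with 29 and 38 UMIs in all 4389 cells. Sox2 was co-detected with Sox3 in 0 to 10 Sox10 cells of a library, too few to read a relation. All 6 glial crest genes rose in this contrast, led by Foxd3 (6.77). Of the 16 progenitor and Notch genes 8 rose, such as Pax3 (4.47) and Fabp7 (3.47), and 2 fell, Prom1 (-1.55) and Msi1 (-0.30), where 15.7% of all genes were called lower.

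In neural cells no SoxB gene passed the test between E9.5 and E10.5, where 8.98% of 14313 genes were called, 5.41% higher and 3.56% lower. Log2 fold changes were 0.06 ± 0.29 for Sox1, 0.10 ± 0.19 for Sox2, -0.06 ± 0.23 for Sox3 and 0.82 ± 0.30 for Sox21 (edgeR adjusted p = 0.904, 0.754, 0.877 and 0.106). The E9.5 libraries held 7.28 and 4.74 CPM of Sox21 and those of E10.5 held 14.1, 10.1, 10.7 and 20.01, so the stages did not overlap, and the fit without a filter on low counts called it (0.80, edgeR adjusted p = 0.0151). Sox2 did not overlap either in CPM (255 ± 15.0 and 354 ± 55.0), a scale that lacks the between-library scaling of the test. At E8.5, with 1 library and no test, Sox21 was at 53.8, Sox1 at 16.4, Sox2 at 134 and Sox3 at 26.8 CPM, and the otic genes Oc90 and Pax8, the latter also expressed at the midbrain-hindbrain border, summed to 19.9 against at most 1.73 later. Kit, sequencer and tissue of that library differed and cannot be told apart from stage.

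**Figure D5:**
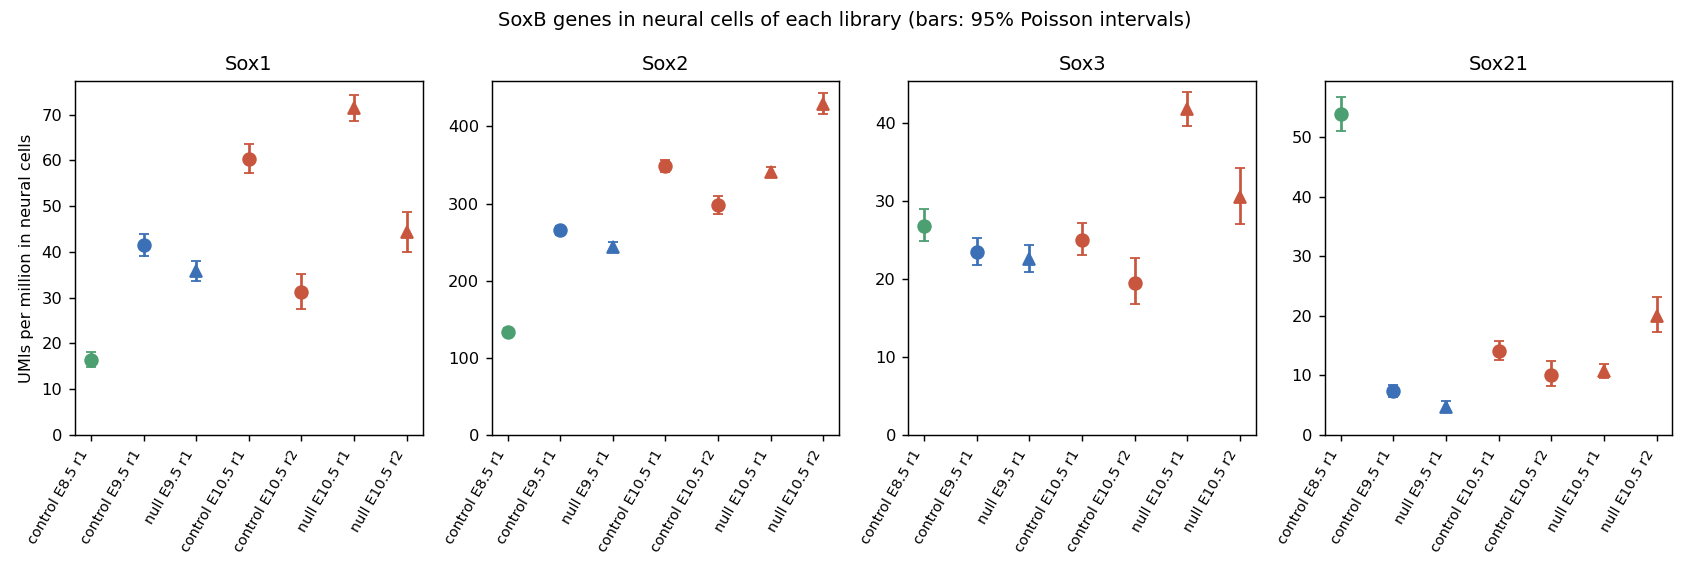
CPM of each SoxB gene summed over neural cells (y axis) in each of the 7 libraries (x axis), with 95% Poisson intervals that cover counting error only. Sox21 is highest at E8.5 (53.8) and Sox3 is higher in both Tbx1 null than in both control libraries of E10.5.

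The comparison of Tbx1 null with control embryos addresses how neural crest lineage cells respond when Tbx1, a T-box gene of the pharyngeal apparatus, is lost. Tbx1 itself was sparse, at 5.19 and 3.80 CPM in the control and 2.97 and 2.67 in the Tbx1 null libraries of E10.5, and does not check the labels. At E10.5 none of the 4 SoxB genes passed the test in neural or neuronal cells, nor did Sox2 and Sox3 in Sox10 cells, where Sox1 and Sox21 were not tested. In neural cells the log2 fold changes of Tbx1 null against control were 0.25 ± 0.35 for Sox1, 0.16 ± 0.24 for Sox2, 0.61 ± 0.27 for Sox3 and 0.21 ± 0.33 for Sox21 (edgeR adjusted p = 0.898, 0.900, 0.733 and 0.912). No gene of 13393 was called by edgeR (0%), while 904 had an unadjusted p under 0.05 and DESeq2 called 32. Sox3 stood at 25.1 and 19.6 CPM in the control and at 41.8 and 30.5 in the Tbx1 null libraries, so the groups did not overlap. For Sox1, Sox2 and Sox21 the groups overlapped and the sign changed without control replicate 2 (-0.20, -0.018 and -0.069). It also changed for Sox1 without Tbx1 null replicate 1 (-0.19) and for Sox21 without Tbx1 null replicate 2 (-0.24).

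In neuronal cells the log2 fold change of Sox3 was 1.20 ± 0.42 (13.6 and 7.25 against 33.0 and 17.5 CPM, edgeR adjusted p = 0.597), and 1.41 with the gate at 10 UMIs (edgeR adjusted p = 0.162). It passed only in the fit without a filter on low counts (1.23, edgeR adjusted p = 0.00419). Sox1, Sox2 and Sox21 were at 0.57 ± 0.68, 0.48 ± 0.40 and 0.26 ± 0.38, each negative once control replicate 2 was left out (-0.20, -0.051 and -0.18). With the gate at 10 UMIs they were at 1.06, 0.77 and 0.72 and did not pass (edgeR adjusted p of 0.296 or more). Of 15554 genes 0.0193% were called. In Sox10 cells Sox2 was at 0.20 ± 0.26 and Sox3 at 0.42 ± 0.30 (edgeR adjusted p = 0.813 and 0.627), where 0.133% of 11268 genes were called, 0.0177% higher and 0.115% lower. Sox2 was at -0.16 without Tbx1 null replicate 2. Of the genes that were tested, none of the progenitor, proneural, glial crest or other Sox lists was called in any of the 3 classes, and neither was Sox2ot or Sox1ot. Not every listed gene was tested in each class, and in Sox10 cells only 1 of these 2 transcripts was.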

How the data were processed

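Single-cell RNA-seq was performed by the authors on sorted EGFP+ DAPI- cells. Per the labels, reads were processed with Cell Ranger 6.0.1 against mm10, and the deposited matrices hold raw UMI counts per gene and cell, with 140264662 to 234844769 UMIs per library. Here, barcodes under 1000 detected genes or above 10% mitochondrial content were dropped, and the highest Scrublet scores (0.8% per 1000 barcodes) were removed as doublets. Neural, Sox10 and mesenchymal gates excluded cells of the neuronal gate, and neural and mesenchymal cells held more of their own than of the other's markers. For each library, the counts of a class were added up and tested with edgeR 4.0.16 (quasi-likelihood test, TMM, filterByExpr, Benjamini-Hochberg over all genes, threshold 0.05), with library as a block in contrasts between classes. DESeq2 1.42.0 was an alternative. For some of the comparisons, the scripts recovered known changes in counts simulated from the same model that is tested. Only genes above a low CPM level were changed there, so power for sparse genes was not measured. Shares carry exact binomial and sums exact Poisson 95% intervals, which cover counting error only, as does the limit of 3 counts for a count of 0. Cells of a sample are not replicates, and p-values measure the spread between libraries, each a pool of embryos. The gene lists, gates and members were chosen with earlier results of these data known. The genes named are the 4 members, the 5 genes most like each over the 28 sums among those reaching 20 CPM, and those lists. The stage comparison in Sox10 cells, the subset contrasts and the neuronal gate at 10 UMIs were added after seeing the data. Alternatives changed the test, scaling, low-count filter, cell filter, doublets, gates, classes, depth, samples and replicates. For the subset contrasts only test, scaling, low-count filter and samples were changed. Sequences and positions came from GENCODE vM21 on mm10, and protein sequences were not used here. Some listed genes, and a subset contrast gated on one of them, are not reported here and entered no list count.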

Additional observations from a re-analysis of the deposited data

Results flagged for a closer look

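Sox3 in neural cells was flagged because the Tbx1 null library lay below its control at E9.5 (22.6 against 23.5 CPM) while both Tbx1 null libraries lay above both controls at E10.5 (30.5 and 41.8 against 25.1 and 19.6). The difference between the genotype effects at the 2 stages was 0.62 on the log2 scale in edgeR and did not pass the test (adjusted p = 1.00, unadjusted p = 0.196). Sox3 in Sox10 cells showed the same pattern (1.20 against 1.32 at E9.5, and 12.6 and 17.0 against 9.12 and 12.2 at E10.5), with a difference of 0.63 on the log2 scale that did not pass either (edgeR adjusted p = 1.00, unadjusted p = 0.313). Each E9.5 value rests on 1 library, and kit version differed between the E9.5 libraries. Both results were flagged by direction alone, whatever the size of the difference. At E9.5 the Sox3 shares of Sox10 cells (0.521% control, 0.221% Tbx1 null) were close to those of mesenchymal cells (0.199% and 0.379%).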

How the results depend on the processing

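Of 1105 values under alternative processing, 995 were counted as unchanged. These kept their direction and their side of the threshold, or moved by less than a set spread. Counts of genes called stayed within a set factor. For shares of cells that spread was the SD over libraries of all stages and both genotypes, not that between replicates. By this rule the median Sox21 share of neural cells, 5.17% with thinning and 11.6% without, was counted as unchanged. The count of 995 is therefore no measure against the spread between replicates. All calls of SoxB genes between classes, in the roof plate, in the rhombic lip and between stages in Sox10 cells were kept in every alternative that gave a value. For Sox10 against mesenchymal cells there were 33 such values of Sox2 and Sox3, since not every alternative gave a value for both genes. For the roof plate and the rhombic lip the alternatives were only test, scaling, low-count filter and left-out libraries. Gates, cell filter, doublets, clusters and depth were not varied there. Sox1 had 29 UMIs in 4389 Sox10 cells, with a median of 0.257 CPM against 0.208 in mesenchymal cells. The causes of the following changes were not tested.

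The count of genes called between genotypes in neural cells (0) was 32 with DESeq2, 196 with no filter on low counts and 5 with sums of thinned cells. In neuronal cells (3) it was 84 with DESeq2, 355 with no filter, 1 with a cell filter of 200 genes and 5% mitochondrial UMIs, 1 with doublets kept, 237 with whole clusters, 14 with the neuronal gate at 10 UMIs, 0 with thinned sums and 0 with 6 libraries and stage as a term. In Sox10 cells (15) it was 146 with no filter, 49 with doublets kept, 134 and 26 with marker sums of at least 2 and 5, 5 with the neuronal gate at 10, 33 with thinned sums and 4 with 6 libraries. With the replicate block the 3 counts were 78, 38 and 391. The labels give these 2 pairs of libraries only a shared replicate number, and deviations of same-numbered libraries correlated at 0.333, 0.277 and 0.165. The replicate block changed no call of a SoxB gene.

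The genotype value of Sox21 in neural cells was -0.075 with 6 libraries, and that of Sox3 in neuronal cells passed with no filter (1.23). Between stages in neural cells (1285 genes) DESeq2 called 2233, no filter 2690 and the other cell filter 670. Sox21 passed with no filter (0.80), and Sox3 turned to 0.070 with clusters, 0.030 with the neuronal gate at 10 and 0.061 with thinned sums. Sox10 against mesenchymal cells gave 1879 genes with thinned sums (3731). In hindbrain cells (787 genes) no filter gave 1306 genes and called Sox2 (0.35).

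Median shares without thinning were 37.3% (Sox1), 92.7% (Sox2) and 27.4% (Sox3) in neural cells, 17.2%, 64.2% and 19.3% in neuronal cells with 8.32% for Sox21, 63.2% (Sox2), 14.3% (Sox3) and 0.725% (Sox21) in Sox10 cells, and 7.09%, 1.31% and 0.112% in mesenchymal cells. At 3000 UMIs the neural shares of Sox2 and Sox3 were 54.7% and 6.92%, and the log2 co-detection ratio of Sox2 and Sox21 was 0.36 (0.083 at 5000 UMIs). With the neuronal gate at 10, Sox1 was found in 3.48% of neuronal cells.

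In the genotype comparison, leaving out 1 E10.5 library left 1 genotype with a single library, which is assumed to vary like the other genotype. Over fits that left out 1 library each, the genotype values in neural cells ran from -0.20 to 0.84 (Sox1), -0.018 to 0.29 (Sox2) and -0.24 to 0.59 (Sox21), with 59 to 249 genes called. In neuronal cells they ran from -0.20 to 2.42, -0.051 to 1.32 and -0.18 to 0.94, with 11 to 26 genes, and in Sox10 cells from -0.16 to 0.52 (Sox2) with 36 to 493 genes. Stage values in neural cells ran from -0.17 to 0.28 (Sox1), -0.021 to 0.21 (Sox2) and -0.37 to 0.25 (Sox3), with 58 to 2194 genes, and the stage fits in Sox10 cells called 825 to 3905 genes. Sox10 against mesenchymal cells gave 2041 to 4377 genes. Among subsets, Sox21 in Otx2 cells ran from -6.21 to -2.14 (1651 to 5573 genes), hindbrain Sox1 from 0.34 to 0.50 and Sox2 from 0.26 to 0.44 (193 to 1585 genes), and the rhombic lip gave 686 to 1354 genes.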

Other observations

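The 2079 cells that passed no gate also held SoxB transcripts. Among those with at least 5000 UMIs at E8.5, Sox21 was found in 168 of 674 cells (24.9%), Sox2 in 36.5% and Sox3 in 12.3%, close to or below the neural cells of that library (24.4%, 45.1% and 12.5%). In the 6 later libraries, Sox21 was found in 0% to 0.694% of 10 to 363 such cells, and Sox2 in 6.32% to 30.0%. The otic genes Oc90 and Pax8 summed to 36.6 CPM in the E8.5 cells without a gate and 19.9 in its neural cells, and their part in the Sox21 share was not tested. No comparison was tested on these cells.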
